A study of Rattus norvegicus with 64 samples.

Results

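The transcripts of 10 genes of glucose breakdown and of the response to low oxygen were followed in the reconstructed wall of the rat urinary bladder. The genes were Slc2a1, Hk2, Pfkp, Pgk1, Eno1, Ldha, Bnip3, Egln3, Car9 and Adm. They were chosen by name with earlier results of these data known, so counts among them describe this set. Each was measured by 1 probe among the 30367 gene probes of the array. They are 10 of the 15715 genes that could be named through RefSeq accessions.

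Part of the bladder of male Wistar rats was removed and the wall was rebuilt with a graft of about 1 cm2. The graft was either bladder acellular matrix (BAM) without cells, or the same matrix seeded with adipose tissue-derived stromal cells (ASCs) of the third passage, isolated from male Wistar rats. The reconstructed wall was separated from the native tissue and collected 7, 30, 90 or 180 days after surgery, with 8 arrays per graft and day, each from a separate rat, and 64 arrays in all. All 8 groups therefore carried the matrix and the surgery, none was an unoperated bladder, and the age of the recipients is not given in the sources used here. The measurement is of whole tissue, so fewer cells of a type and less RNA per cell cannot be told apart.

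Glycolysis converts glucose to pyruvate, and it supplies energy where oxygen is short. In low oxygen the prolyl hydroxylases that mark hypoxia-inducible factor (HIF) for destruction slow down, HIF accumulates, and it raises the transcription of glucose carriers, glycolytic enzymes, mitophagy receptors, carbonic anhydrases and vessel-active peptides by binding short motifs in the DNA. A graft without its own vessels starts without a blood supply, and proliferating and inflammatory cells also use glycolysis heavily.

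The HIF motif has the core letters ACGTG or GCGTG. The 300 bases around the annotated start (250 before to 50 after) were available from RefSeq on assembly GRCr8 for 9 of the 10 genes, all but Pgk1, and 6 of the 9 held at least 1 core on either strand, while 41.6% of all 33469 rat promoters of that length did (ACGTG 19.3%, GCGTG 29.7%). The letters CACGTG hold ACGTG on both strands and were counted on each. 4 promoters are shown, with the cores in capitals (read as CACGT or CACGC where the core is on the other strand), because Slc2a1 was lower at 90 than at 30 days in both grafts and Ldha with BAM+ASCs, and because Bnip3 and Egln3 differed between the grafts in that change. The regions are chr5:138002272-138002571 on the plus strand for Slc2a1, chr1:106507842-106508141 on the plus strand for Ldha, chr1:203154913-203155212 on the minus strand for Bnip3 and chr6:77410966-77411265 on the minus strand for Egln3.
Slc2a1: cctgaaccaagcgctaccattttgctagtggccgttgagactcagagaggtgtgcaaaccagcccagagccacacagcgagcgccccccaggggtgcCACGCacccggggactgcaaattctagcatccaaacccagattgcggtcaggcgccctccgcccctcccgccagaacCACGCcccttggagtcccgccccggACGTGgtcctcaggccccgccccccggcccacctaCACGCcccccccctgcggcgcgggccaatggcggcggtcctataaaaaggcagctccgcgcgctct
Ldha: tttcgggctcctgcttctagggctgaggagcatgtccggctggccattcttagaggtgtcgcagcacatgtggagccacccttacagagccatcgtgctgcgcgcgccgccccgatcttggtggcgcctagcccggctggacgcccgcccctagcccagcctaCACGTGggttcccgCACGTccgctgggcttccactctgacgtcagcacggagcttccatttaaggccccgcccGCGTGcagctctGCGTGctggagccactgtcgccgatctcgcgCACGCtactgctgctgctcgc
Bnip3: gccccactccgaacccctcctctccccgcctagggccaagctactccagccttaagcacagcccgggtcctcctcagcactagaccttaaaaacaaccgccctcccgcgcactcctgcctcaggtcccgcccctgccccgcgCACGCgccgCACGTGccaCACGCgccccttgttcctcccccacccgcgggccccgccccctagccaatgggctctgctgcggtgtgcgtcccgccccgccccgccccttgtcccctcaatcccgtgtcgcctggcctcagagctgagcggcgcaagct
Egln3: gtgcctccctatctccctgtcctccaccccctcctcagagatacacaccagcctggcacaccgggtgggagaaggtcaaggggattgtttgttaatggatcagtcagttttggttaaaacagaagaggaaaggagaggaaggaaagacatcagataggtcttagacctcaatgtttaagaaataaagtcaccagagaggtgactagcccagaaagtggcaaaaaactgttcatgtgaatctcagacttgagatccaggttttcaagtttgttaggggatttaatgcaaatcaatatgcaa
Slc2a1 held GCGTG at -153, -76 and -16 and ACGTG at -51, counted from the annotated start. Ldha held 6 cores, among them the overlapping pair at -87 and -86. In Bnip3 the overlapping pair at -99 and -98 lay between GCGTG cores at -108 and -90. Egln3 held none in this window, and neither did Hk2 or Adm. A match is a description of the letters, not a bound site, and the absence of one says only that these letters are not in this window.

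Levels are given as log2 of the processed intensity minus the 75th percentile of the same array, so a value of 0 is the brightness of the spot at the upper quartile, and levels are compared between groups of 1 gene only. A difference was called where the adjusted p of limma's moderated test, over all 30367 probes, was under 0.01 and the change was over 1.5-fold. Slc2a1, Pfkp, Pgk1, Eno1, Ldha, Bnip3 and Adm were well above background on all 64 arrays, Egln3 on 63, Hk2 on 58 and Car9 on 38. Ldha was saturated on 16 arrays and Pgk1 on 7, and a saturated level is a lower limit.

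Each group was hybridized on 1 slide of its own, so slide and group cannot be told apart in any comparison. The 7 and 30 day slides were scanned on another date than the 90 and 180 day slides, so the change from 30 to 90 days crosses scan dates in both grafts. The share of gene spots well above background was 73.3% to 95.6% at 7 and 30 days and 35.5% to 64.6% later, and replicate 8 of BAM at 90 days stood apart at the low end. Urothelial (12 genes) and smooth muscle (9 genes) marker lists each had 0 genes that failed to be well above background on every array of any group. Other lists held such genes, among them 4 of 28 other hypoxia targets at 90 days in each graft.

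**Figure D1:**
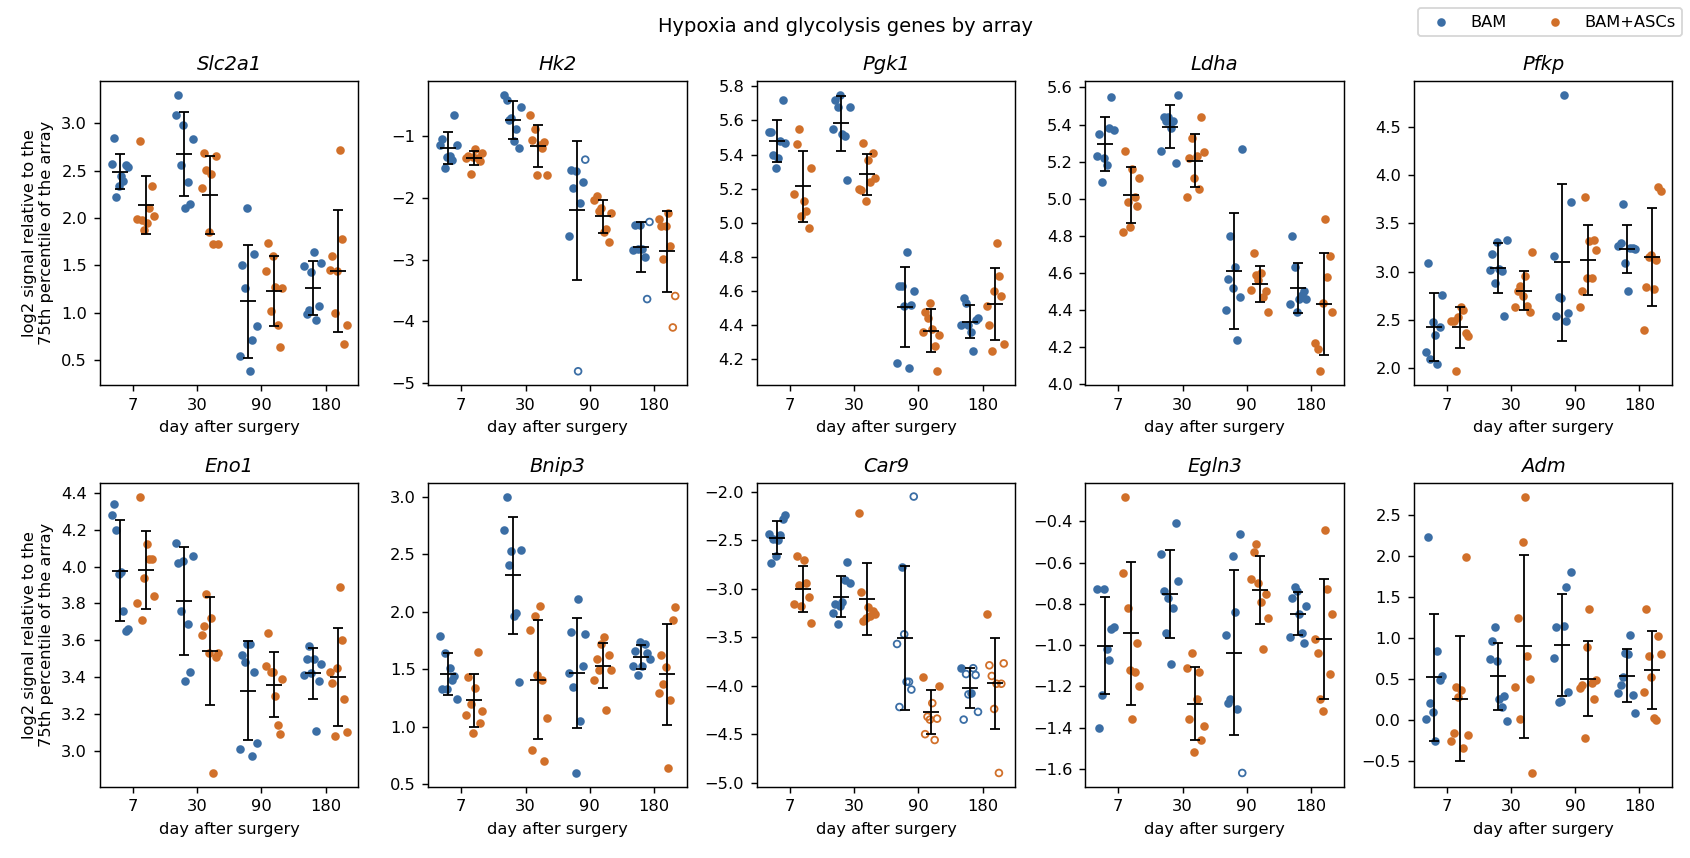
Level of each gene (log2 intensity minus the array's 75th percentile) on all 64 arrays by day after surgery, blue for BAM and orange for BAM+ASCs, with the group mean and SD in black and hollow points where the probe was not well above background. Slc2a1, Hk2 and Pgk1 sit lower at 90 and 180 days than at 7 and 30 days in both grafts, Ldha was saturated on 6 of 8 BAM arrays at both 30 and 90 days, and Bnip3 is high in BAM at 30 days.

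From day 30 to day 90 a glucose carrier (Slc2a1) and 2 enzymes of glycolysis (Hk2 and Pgk1) fell in both grafts, and the enzyme that makes lactate (Ldha) fell with BAM+ASCs. With BAM, 5 of the 10 genes were called and all 5 were lower (Slc2a1, Hk2, Pgk1, Ldha and Bnip3), where 44.7% of all probes were called, 35.3% higher and 9.4% lower. With BAM+ASCs, 5 of the 10 were called and all 5 were lower (Slc2a1, Hk2, Pgk1, Ldha and Car9), where 28.1% of all probes were called, 17.8% higher and 10.3% lower. The median change of the 10 genes was -0.63 with BAM and -0.53 with BAM+ASCs on the log2 scale, while the median over all probes was 0.30 and 0.11. Because the 10 genes were chosen with earlier results of these data known, this contrast is a description of the set. Slc2a1, Hk2 and Pgk1 were called in both grafts. The grafts share no arrays in this comparison, but both change slide and scan date between the days, so they are not independent of those. Ldha was called in both as well, but its BAM value compares arrays saturated at both days. The share of all probes called depended on the processing, at 25.2% and 17% after quantile normalization and 15.1% and 12.9% under normexp background correction. The all-probe medians were then 0.01 and 0.03 after quantile normalization and 0.19 and 0.23 under normexp. Those of the 10 genes were -0.56 and -0.58, and -0.72 and -0.38. Slc2a1, Hk2 and Pgk1 were lower under every scaling in both grafts, and Ldha with BAM+ASCs. For Ldha with BAM every scaling carries the clipped signal, and after quantile normalization it was not called (-0.55).

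Slc2a1 encodes the glucose carrier GLUT1. With BAM its level ran from 2.10 to 3.30 at 30 days, with a median of 2.70, and from 0.38 to 2.10 at 90 days, with a median of 1.06. With BAM+ASCs it ran from 1.72 to 2.69 at 30 days, with a median of 2.39, and from 0.64 to 1.73 at 90 days, with a median of 1.26. All 8 BAM arrays at 90 days were below every array at 30 days, though the nearest values both round to 2.10, and with BAM+ASCs 7 of 8 were. Slc2a1 fell by 1.55 ± 0.214 (SE, 8 arrays per group) on the log2 scale with BAM, 2.94-fold (adjusted p = 9.3e-09), and by 1.01 ± 0.214 with BAM+ASCs, 2.02-fold (adjusted p = 9.25e-05). The 2 changes differed by 0.54 with a 95% interval from -0.06 to 1.15 (limma, adjusted p = 0.158). Ordered by mean, Slc2a1 was highest with BAM at 30 days, at 2.68 ± 0.444 (SD), and lowest with BAM at 90 days, at 1.12 ± 0.596. Of the 7 gaps between neighbouring groups in that order only the one between BAM+ASCs at 7 days (2.13) and BAM+ASCs at 180 days (1.44) exceeded the larger SD of the pair.

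Hk2 encodes hexokinase 2, which traps glucose in the cell by phosphorylation. With BAM its level ran from -1.19 to -0.33 at 30 days, with a median of -0.72, and from -4.81 to -1.38 at 90 days, with a median of -1.79. With BAM+ASCs it ran from -1.63 to -0.65 at 30 days, with a median of -1.12, and from -2.71 to -1.97 at 90 days, with a median of -2.23. The days did not overlap in either graft. Hk2 fell by 1.47 ± 0.261 on the log2 scale with BAM, 2.77-fold (adjusted p = 2.41e-06), and by 1.14 ± 0.261 with BAM+ASCs, 2.21-fold (adjusted p = 0.000271). It was not well above background on 2 of the 8 BAM arrays at 90 days. Without replicate 5 of BAM at 90 days, the array at -4.81, the change of Hk2 was -1.10. The levels at 180 days were the lowest of all, at -2.80 ± 0.406 (SD) with BAM and -2.87 ± 0.664 with BAM+ASCs, each with 6 of 8 arrays well above background, and the changes from 90 to 180 days were not called (-0.60, adjusted p = 0.0937, and -0.57, adjusted p = 0.153). Without the same array the change with BAM was called, at -0.97 (adjusted p = 9.32e-05).

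Pgk1 encodes phosphoglycerate kinase 1, the first ATP-forming enzyme of glycolysis, and Ldha encodes lactate dehydrogenase A, which turns pyruvate to lactate. Pgk1 ran from 5.25 to 5.75 with BAM at 30 days, with a median of 5.61, and from 4.15 to 4.83 at 90 days, with a median of 4.56. With BAM+ASCs it ran from 5.13 to 5.47 at 30 days, with a median of 5.25, and from 4.13 to 4.53 at 90 days, with a median of 4.37. The days did not overlap in either graft. Pgk1 fell by 1.08 ± 0.0882 on the log2 scale with BAM, 2.11-fold (adjusted p = 2.63e-15), and by 0.91 ± 0.0882 with BAM+ASCs, 1.88-fold (adjusted p = 1.8e-12), the smallest standard errors among the 10 genes. Pgk1 was saturated on 5 of the 8 BAM arrays at 30 days and on 1 of the 8 at 90 days, so its BAM level at 30 days is a lower limit. Before scaling, its log2 intensity ran from 15.22 to 16.20 on the BAM arrays at 30 days and from 14.46 to 16.13 at 90 days, which overlap. With BAM+ASCs no array of either day was saturated, and before scaling it ran from 15.61 to 15.94 at 30 days and from 14.01 to 14.74 at 90 days.

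Ldha ran from 5.19 to 5.56 with BAM at 30 days, with a median of 5.42, and from 4.24 to 5.27 at 90 days, with a median of 4.54. With BAM+ASCs it ran from 5.01 to 5.44 at 30 days, with a median of 5.22, and from 4.39 to 4.71 at 90 days, with a median of 4.53. With BAM+ASCs all 8 arrays at 90 days were below every array at 30 days, and Ldha fell by 0.66 ± 0.0976 (1.58-fold, adjusted p = 1.35e-07). It was saturated on 3 of these 8 arrays at 30 days and on none at 90 days. With BAM it was saturated on 6 of 8 arrays at both days, at a log2 intensity before scaling of 15.80 to 15.93 at 30 days and 15.86 to 15.96 at 90 days. The 75th percentile of the saturated arrays was 10.38 to 10.64 at 30 days and 11.30 to 11.62 at 90 days. The fitted BAM difference of -0.78 therefore holds the difference in array scaling of a clipped signal, and a fall of Ldha with BAM was not shown. The unsaturated BAM arrays were at 5.42 and 5.19 at 30 days and at 4.80 and 5.27 at 90 days, which overlap.

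From 7 to 30 days the changes of these 4 genes were 0.09 to 0.46 with BAM and 0.07 to 0.20 with BAM+ASCs, and none was called. Pgk1 was highest with BAM at 30 days, at 5.58 ± 0.165 (SD), and the 4 groups at 7 and 30 days (5.21 to 5.58) lay above the 4 groups at 90 and 180 days (4.37 to 4.52) with a gap of 0.69 between them. Within these 4 late groups of Pgk1 no neighbouring pair differed by more than the larger SD. For Ldha group means were 5.02 to 5.39 early and 4.43 to 4.61 late, with the saturated BAM arrays at 90 days among the late ones.

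**Figure D2:**
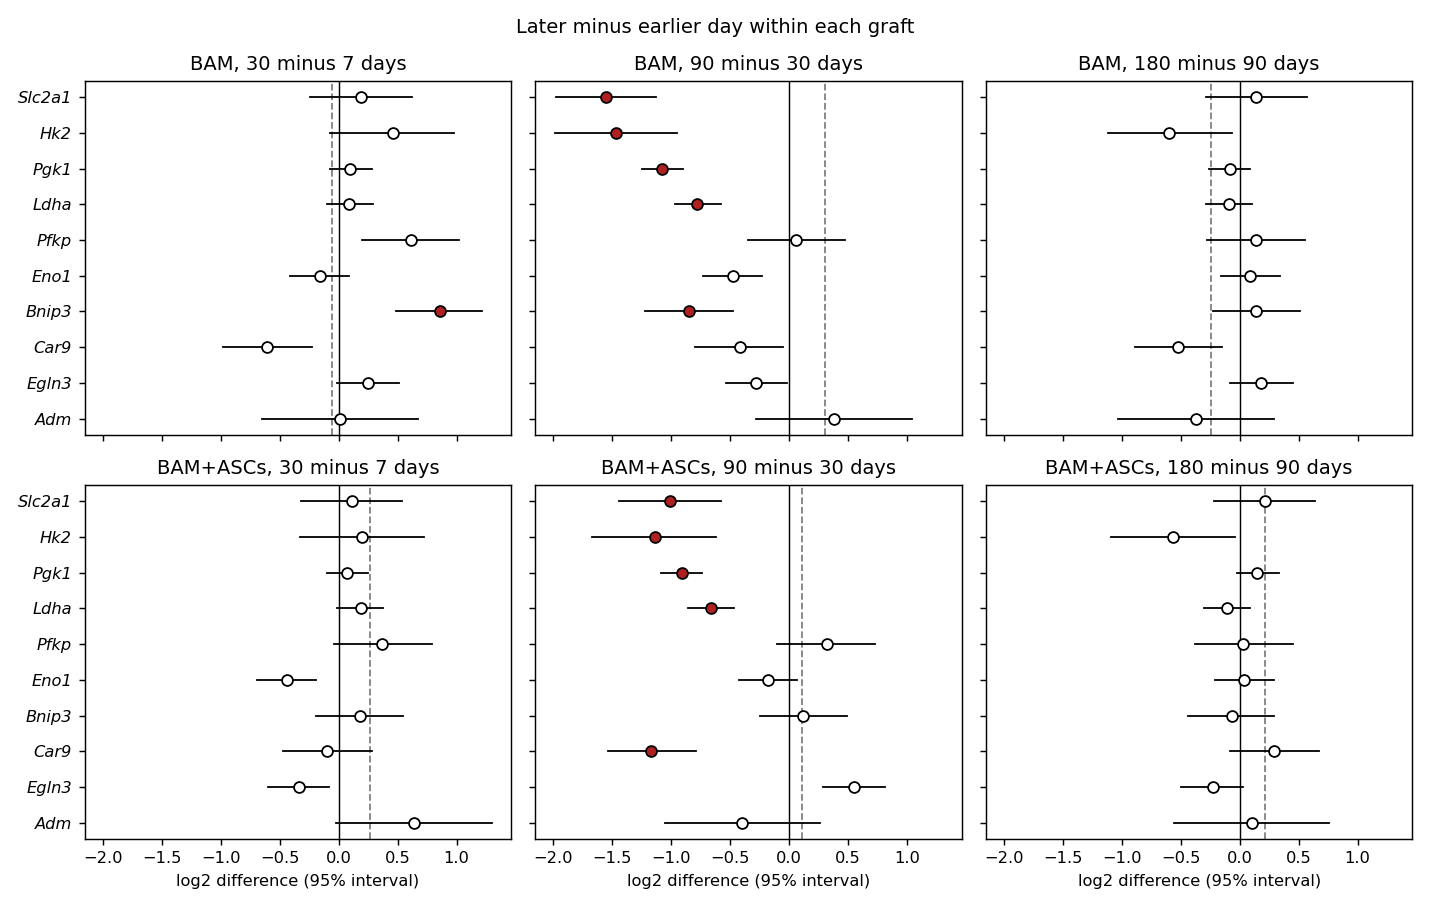
Log2 difference between successive days (later minus earlier) for each gene, with its 95% interval, in 6 panels for the 2 grafts and 3 steps. Filled red points were called and the dashed line is the median over all probes. The called falls sit in the 2 panels for 90 against 30 days, and Bnip3 with BAM is the only called rise from 7 to 30 days.

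Bnip3, a mitochondrial receptor that marks mitochondria for removal by autophagy, was the only gene of the 10 called between the grafts at 30 days. With BAM its level at 30 days ran from 1.39 to 3.00, with a median of 2.47, and with BAM+ASCs from 0.70 to 2.05, with a median of 1.43. The groups overlapped, with 3 of the 8 BAM+ASCs arrays below every BAM array. Bnip3 was lower with BAM+ASCs by 0.91 on the log2 scale (log2 difference -0.91 ± 0.184, 95% interval -1.27 to -0.54, 1.87-fold, adjusted p = 0.0013). At this day 1.66% of all probes were called and 0.468% were called lower. Fitted on the 2 groups alone it did not pass the test (adjusted p = 0.0343).

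With BAM, Bnip3 rose from day 7 to day 30 and fell again by day 90. At 7 days it ran from 1.24 to 1.79, with a median of 1.43, and 7 of the 8 arrays at 30 days were above every one of these. The rise was 0.86 ± 0.184 (1.81-fold, adjusted p = 0.000354), the only call among the 10 genes in that comparison, in which 8.62% of all probes were called and 4.38% were called higher. At 90 days it ran from 0.60 to 2.11, with a median of 1.5. The fall was 0.85 ± 0.184 (1.80-fold, adjusted p = 6.63e-05), and 3 of 8 arrays lay below every array at 30 days. The rise, the fall and the graft difference at 30 days share the same 8 BAM arrays at 30 days. With BAM+ASCs the group medians of Bnip3 were 1.17, 1.43, 1.54 and 1.44 at 7, 30, 90 and 180 days, and no step was called. Only BAM at 30 days (mean 2.32 ± 0.511, SD) stood above its neighbour in the order of the 8 groups, BAM at 180 days (1.61 ± 0.102), by more than the larger SD.

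Egln3 encodes the HIF prolyl hydroxylase PHD3, an oxygen sensor that is itself a HIF target. At 30 days its level ran from -1.09 to -0.41 with BAM, with a median of -0.75, and from -1.52 to -1.04 with BAM+ASCs, with a median of -1.31. 7 of the 8 BAM+ASCs arrays lay below every BAM array. The log2 difference was -0.53 ± 0.131 (adjusted p = 0.00751), but at 1.45-fold it missed the fold needed for a call. At 90 days Egln3 ran from -1.62 to -0.46 with BAM, with a median of -1.10, and from -1.02 to -0.51 with BAM+ASCs, with a median of -0.73, a difference of 0.30 in the other direction that did not pass (adjusted p = 0.0642). With BAM+ASCs all 8 arrays at 90 days were above every array at 30 days, a change of 0.55 ± 0.131 (1.47-fold, adjusted p = 0.000429) that missed the fold. With BAM the change was -0.28 ± 0.131 (adjusted p = 0.0557).

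The difference between the grafts in the change from 30 to 90 days was tested directly, and 2 of the 10 genes were called, against 10.1% of all probes. The change of Bnip3 was higher with BAM+ASCs than with BAM by 0.97 ± 0.26 (95% interval 0.45 to 1.49, adjusted p = 0.00552). That of Egln3 was higher with BAM+ASCs by 0.83 ± 0.185 (95% interval 0.46 to 1.20, adjusted p = 0.000768). Both were higher, as were 3.28% of all probes called in that direction, and the median of the 10 genes was 0.28 against -0.32 over all probes. Bnip3 lost its call when any 1 of 5 arrays was left out (BAM+ASCs at 30 days replicate 2 or 7, BAM at 30 days replicate 1 or 2, or BAM at 90 days replicate 4), at 0.84 to 0.91 (adjusted p = 0.0103 to 0.0125). Egln3 lost its call under normexp background correction, at 0.55 (adjusted p = 0.0146). None of the 10 genes was called in the other 5 differences of the graft effect between days, where the share of all probes called was 0.985% for 30 minus 7 days, 5.8% for 90 minus 7, 8.47% for 180 minus 7, 2.5% for 180 minus 30 and 9.79% for 180 minus 90. Car9 for 180 minus 90 days was called without replicate 2 of BAM at 90 days (0.92, limma, adjusted p = 0.00881). It was also called without replicate 6 of BAM+ASCs at 180 days (0.94, adjusted p = 0.0052).

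**Figure D3:**
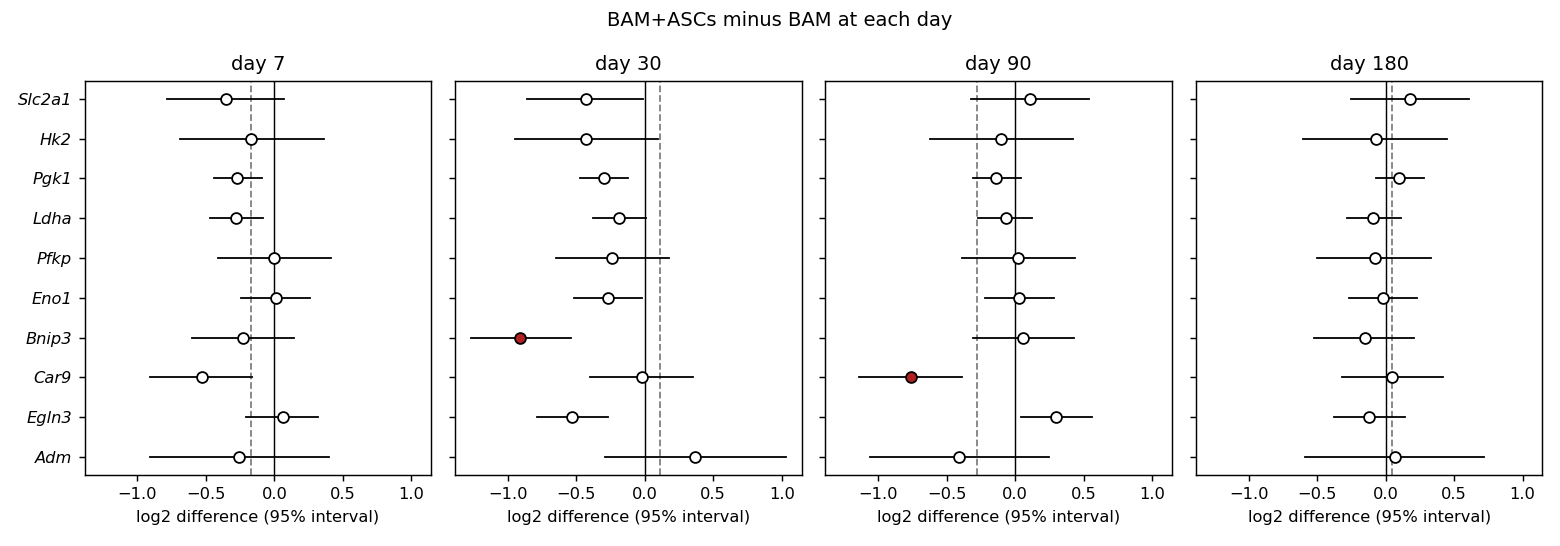
Log2 difference of BAM+ASCs minus BAM for each gene at 7, 30, 90 and 180 days, with its 95% interval. Filled red points were called and the dashed line is the median over all probes. Bnip3 at 30 days (-0.91) and Car9 at 90 days (-0.76) are the calls, and at 180 days every gene lies within 0.18 of 0.

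Between the grafts few of these genes differed at any day. At 7 days none of the 10 was called (7.75% of all probes were), with 3 of 10 at an unadjusted p under 0.05. Pgk1, Ldha and Car9 were the 3, at -0.27 (adjusted p = 0.0259), -0.28 (adjusted p = 0.038) and -0.53 (adjusted p = 0.0384). At 30 days 9 of the 10 values were negative and the median of the 10 was -0.28, against 0.11 over all probes, with Adm the exception at 0.37 ± 0.328. At 180 days 0 of the 10 were called (2.42% of all probes were) and 0 had an unadjusted p under 0.05. The widest of the 95% intervals at 180 days, that of Adm, ran from -0.59 to 0.72, and differences inside these intervals are not excluded. A call needed an adjusted p under 0.01 and a change over 1.5-fold, so the intervals do not mark the smallest difference that could be called.

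Car9 encodes carbonic anhydrase 9, a cell surface enzyme that handles acid and is among the most HIF-dependent transcripts known. It was dim, and its levels late in the course are close to background. At 90 days Car9 ran from -4.22 to -2.05 with BAM, with a median of -3.77, and from -4.56 to -3.91 with BAM+ASCs, with a median of -4.33. 5 of the 8 BAM+ASCs arrays lay below every BAM array, but the probe was well above background on 1 of 8 BAM arrays and 2 of 8 BAM+ASCs arrays. The log2 difference was -0.76 ± 0.187 (adjusted p = 0.00154), the only call of the 10 genes at that day, where 12.6% of all probes were called and 8.78% were called lower. It was lost without replicate 8 of BAM at 90 days (-0.56, adjusted p = 0.0102), under normexp (-0.37, adjusted p = 0.0971) and with the 2 groups alone (adjusted p = 0.0342). The local background around the spots had a median of 321 to 366 on the BAM arrays at 90 days and 99 to 120 on the BAM+ASCs arrays, and its part in the difference was not tested.

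Car9 was also called from 30 to 90 days with BAM+ASCs. At 30 days it ran from -3.33 to -2.22, with a median of -3.24, above all 8 arrays at 90 days. The log2 change was -1.17 ± 0.187 (adjusted p = 8.35e-07), and under normexp it was -0.33 and not called (adjusted p = 0.0691). With 2 of 8 arrays at 90 days well above background, no fold is given. With BAM the change was -0.42 ± 0.187 (adjusted p = 0.0439), and without replicate 8 of BAM at 90 days it was -0.63 (adjusted p = 0.00071) and was called. The highest group mean of Car9 was that of BAM at 7 days, -2.47 ± 0.166 (SD), which stood above its neighbour, BAM+ASCs at 7 days, at -3.01 ± 0.239. From 7 to 30 days with BAM it changed by -0.61 ± 0.187 (adjusted p = 0.0137), with 7 of 8 arrays at 30 days below every array at 7 days.

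Pfkp, the platelet-type phosphofructokinase that commits sugar to glycolysis, was not called in any comparison. Its group means ran from 2.43 at 7 days in both grafts (SD 0.354 with BAM and 0.21 with BAM+ASCs) to 3.24 ± 0.249 with BAM at 180 days, whereas Slc2a1 and Hk2 had their lowest means at 90 or 180 days. From 7 to 30 days it changed by 0.61 ± 0.207 with BAM (adjusted p = 0.0281) and by 0.37 ± 0.207 with BAM+ASCs (adjusted p = 0.158). Replicate 5 of BAM at 90 days, which held the lowest Hk2, held the highest Pfkp of the 64 arrays, at 4.83. From 30 to 90 days with BAM Pfkp changed by 0.06, and by -0.19 (adjusted p = 0.359) without that array.

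Eno1, which encodes alpha-enolase of the lower part of glycolysis, had lower means in the later groups, and no single step between days passed 1.5-fold. Group means ran from 3.98 ± 0.211 (SD) with BAM+ASCs at 7 days to 3.33 ± 0.268 with BAM at 90 days, and no neighbouring pair differed by more than the larger SD. The early step with BAM+ASCs was -0.44 ± 0.125 (1.36-fold, adjusted p = 0.00718), with 6 of 8 arrays at 30 days below every array at 7 days. With BAM the step from 30 to 90 days was -0.48 ± 0.125 (1.40-fold, adjusted p = 0.00065), with 3 of 8 arrays below every earlier one. In the comparison of 30 with 7 days with BAM+ASCs, 0 of the 10 genes were called and 8.01% of all probes were, with 2 of 10 at an unadjusted p under 0.05, Eno1 and Egln3.

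Adm encodes adrenomedullin, a peptide that widens vessels and stabilizes their walls. It was the most variable of the 10 genes between rats, with a standard error of 0.328, and was not called in any comparison. At 7 days with BAM it ran from -0.26 to 2.24, with a median of 0.35, and with BAM+ASCs at 30 days from -0.65 to 2.73, with a median of 0.64. Its group means, 0.26 to 0.91, lay within 1 SD of their neighbours in every case. From 90 to 180 days none of the 10 genes was called in either graft, where 9.39% of all probes were called with BAM and 4.13% with BAM+ASCs. In that step 2 of 10 with BAM (Hk2 and Car9) and 1 of 10 with BAM+ASCs (Hk2) had an unadjusted p under 0.05.

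Of 17 other glycolysis enzymes, 6 rose and 5 fell from 30 to 90 days with BAM (median 0.06), where 35.3% of all probes were called higher and 9.4% lower. With BAM+ASCs 4 rose and 2 fell (median -0.04), where 17.8% of all probes were called higher and 10.3% lower. Hk3, the hexokinase of white blood cells, had the largest change among those well above background on all arrays of at least 1 of the days, at -2.64 ± 0.57 with BAM (adjusted p = 6.35e-05) and -2.34 ± 0.57 with BAM+ASCs (adjusted p = 0.000591). Among genes picked after their values were seen, triose phosphate isomerase (Tpi1) fell in both grafts, by 0.99 and 0.61 on the log2 scale. The muscle-type pyruvate kinase (Pkm) fell by 0.78 with BAM. Hexokinase 1 (Hk1) rose by 0.74 and 0.93, and Ldhb, the lactate dehydrogenase subunit of oxidative tissues, rose by 0.68 and 0.91, both also picked after their values were seen. Among those that rose with BAM, Pklr and Pgam2 were well above background on 2 or fewer of the 8 arrays at 90 days.

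Of 10 glycolysis regulators and carriers, 2 rose and 3 fell with BAM (median -0.45) and 1 rose and 3 fell with BAM+ASCs (median -0.38). Over all probes 35.3% were called higher and 9.4% lower with BAM, and 17.8% and 10.3% with BAM+ASCs. The lactate exporter Slc16a3 (MCT4) went from 3.45 ± 0.486 (SD) to 0.98 ± 0.773 with BAM, a log2 change of -2.47 ± 0.278 (SE, adjusted p = 4.32e-11). With BAM+ASCs, where it was picked after its values were seen, it changed by -1.47. The insulin-responsive glucose carrier Slc2a4 (GLUT4), which muscle and fat use, went from -0.87 ± 0.459 to 1.34 ± 0.451 with BAM+ASCs, a rise of 2.20 ± 0.273 (adjusted p = 2.26e-09), and by 1.53 with BAM. Over the interval in which Slc2a1 fell, this other glucose carrier rose in both grafts.

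Of 10 genes of pyruvate entry into mitochondria, 2 rose and 1 fell with BAM and 1 rose with BAM+ASCs. In this step 35.3% of all probes were called higher and 9.4% lower with BAM, and 17.8% and 10.3% with BAM+ASCs. Pdk2, a kinase that restrains pyruvate dehydrogenase, rose by 1.89 ± 0.171 with BAM+ASCs (adjusted p = 2.39e-13) and by 1.69 with BAM. Of 8 genes of HIF and its oxygen sensing other than Egln3, 0 were called from 30 to 90 days in either graft (limma), with a median of 0.06 with BAM and -0.23 with BAM+ASCs. From 7 to 30 days with BAM, where 4.38% of all probes were called higher and 4.24% lower, 3 of the 8 fell, Hif1a by 1.45 (adjusted p = 2.93e-05), Epas1 by 1.60 (adjusted p = 1.18e-08) and Arnt2, picked after its values were seen, by 1.00. Hif1a and Epas1 encode the oxygen-regulated subunits of HIF, which are controlled mainly as protein. Over the same step 6 of 8 endothelial markers (median -0.98) and 4 of 11 neutrophil and macrophage markers were lower and 5 of 12 urothelial markers were higher, and their part in these falls was not tested.

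Of 28 other hypoxia targets, 2 rose and 10 fell with BAM (median -0.42) and 1 rose and 9 fell with BAM+ASCs (median -0.22), against all-probe medians of 0.30 and 0.11. Over all probes 9.4% were called lower with BAM and 10.3% with BAM+ASCs. The heme-degrading enzyme Hmox1 fell by 2.18 with BAM and 1.77 with BAM+ASCs, the chemokine receptor Cxcr4 by 1.94 and 1.48, and the lipase inhibitor Angptl4 by 2.13 with BAM. Ero1a, an endoplasmic reticulum oxidase of disulfide bond formation, was picked after its values were seen and fell by 1.85 ± 0.128 with BAM (adjusted p = 1.2e-17) and by 0.75 ± 0.128 with BAM+ASCs (adjusted p = 2.93e-06). The collagen-modifying enzymes Plod2 and P4ha1, picked in the same way, fell by 1.73 and 1.37 with BAM and by 1.23 and 0.68 with BAM+ASCs. Of the 2 that rose with BAM, Mxi1, an antagonist of Myc, rose by 0.63 in both grafts, and Epo was well above background on 1 of 8 arrays at 90 days.

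At 30 days 2 other pathway genes were called between the grafts, both lower with BAM+ASCs, as Bnip3 was. Over all probes 1.66% were called and 0.468% were called lower. Ero1a was 1.09 ± 0.336 (SD) with BAM and 0.32 ± 0.204 with BAM+ASCs, a difference of -0.77 ± 0.128 (SE, adjusted p = 0.000183). It was called under every scaling. The liver-type phosphofructokinase Pfkl differed by -0.59 ± 0.111 (adjusted p = 0.000571), and by -0.45 and uncalled under normexp. Ero1a was 1 of 28 other hypoxia targets (median -0.31) and Pfkl 1 of 17 other glycolysis enzymes (median -0.30), while 0 of 8 HIF-sensing genes, 0 of 10 regulators and carriers and 0 of 10 pyruvate genes were called.

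Of 6 genes around Adm (5 receptor genes and the related peptide Adm2), 2 rose with BAM from 30 to 90 days, the receptor genes Ramp2 and Ackr3, by 0.92 and 0.79. With BAM+ASCs 1 rose (Ramp2, by 0.69) and 2 fell (the receptor gene Ramp3 by 1.22, and the peptide Adm2 at least 2.21-fold lower). Of 8 other carbonic anhydrases 2 rose with BAM, and with BAM+ASCs 2 rose and 1 fell. Car1 and Car14 rose in both grafts, Car1 by 1.44 and 0.73 and Car14 by 1.35 and 0.79. All these were named after their values were seen. In this step 35.3% of all probes were called higher and 9.4% lower with BAM, and 17.8% and 10.3% with BAM+ASCs.

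At 7 days, when none of the 10 genes was called between the grafts, some genes around them were, where 2.1% of all probes were called higher and 5.65% lower. Of 8 HIF-sensing genes 2 were lower with BAM+ASCs, among them Hif3a (-1.39), a HIF subunit that can restrain the others. Of 17 other glycolysis enzymes 1 was higher, Ldhb (1.09), and 1 was lower, Eno2 (-0.80, named after its value was seen). Of 28 other hypoxia targets 0 were higher and 4 were lower, among them the inducible nitric oxide synthase Nos2 (-1.33) and the transferrin receptor Tfrc (-1.08). The membrane-bound carbonic anhydrase Car4 was lower (-2.34) and the mitochondrial Car5b higher (1.35). Urothelial markers also differed there, with 9 of 12 higher with BAM+ASCs and list means of 1.53 to 3.02 against -2.26 to 2.50 with BAM, and their part in these differences was not tested. At 90 days Ldhb was again higher with BAM+ASCs (0.70, adjusted p = 0.0035), and the lung-type cytochrome oxidase subunit Cox4i2, a hypoxia target, was lower (-0.80, adjusted p = 3.04e-06). At 180 days Cox4i2 was higher with BAM+ASCs (0.60, adjusted p = 0.00144), a call lost at 0.55 under normexp, quantile normalization and the percentile over detected probes.

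**Figure D4:**
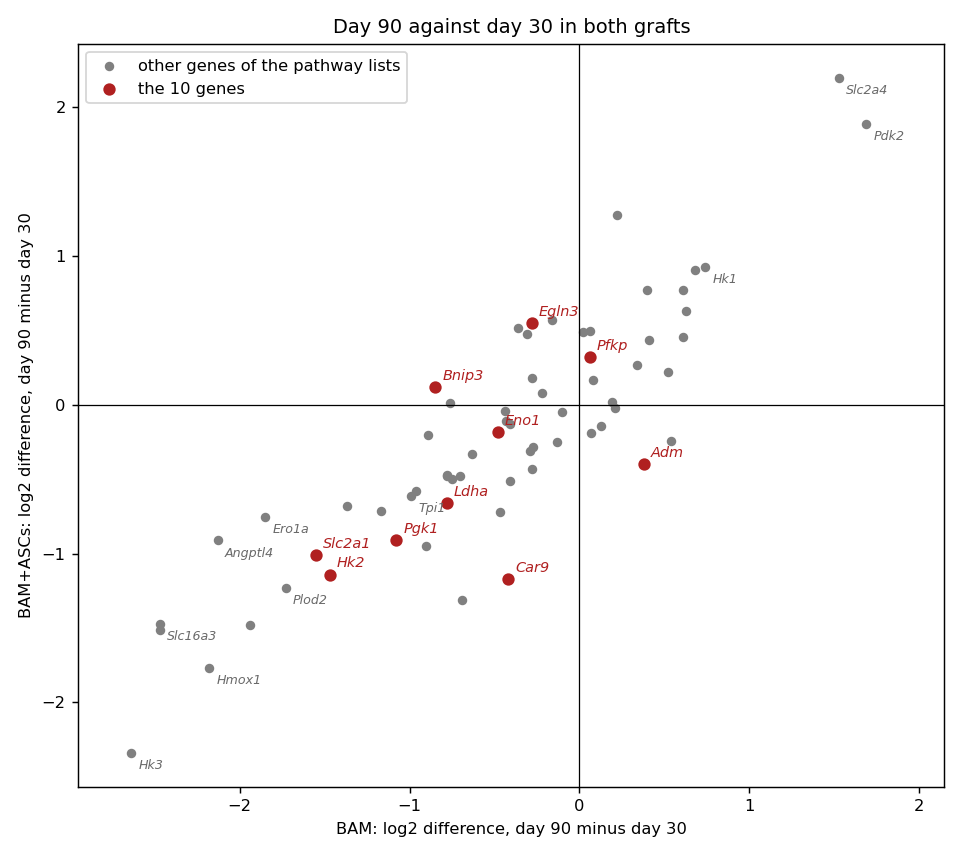
Log2 change from 30 to 90 days with BAM (x axis) against the change with BAM+ASCs (y axis), red for the 10 genes and gray for 56 other genes of the 4 glycolysis, pyruvate and hypoxia lists that were well above background on all arrays of at least 1 of the 2 groups in both grafts. Slc2a1, Hk2 and Pgk1 lie at the lower left, and Slc2a4 and Pdk2 in the upper right.

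Cell type markers were also called over the same interval. From 30 to 90 days 35.3% of all probes were called higher and 9.4% lower with BAM. With BAM+ASCs 17.8% were called higher and 10.3% lower. Of 11 neutrophil and macrophage markers 5 were lower at 90 than at 30 days with BAM (median -0.99) and 6 with BAM+ASCs (median -1.32). The mean level of that list per array ran from -0.48 to 0.15 at 30 days and from -2.82 to 0.18 at 90 days with BAM, and from -0.94 to 0.41 and from -3.96 to -0.78 with BAM+ASCs. Of 9 smooth muscle markers 5 were higher with BAM (median 0.86) and 8 with BAM+ASCs (median 1.35), with list means from 1.71 to 2.50 and from 2.01 to 3.80 with BAM, and from 1.27 to 2.36 and from 2.95 to 3.82 with BAM+ASCs. Endothelial markers were higher in 4 of 8 cases with BAM (median 0.62) and 2 of 8 with BAM+ASCs (median 0.16), and skeletal muscle markers in 5 of 10 (median 1.00) and 1 of 10 (median 0.51). Of the 10 skeletal muscle markers, 4 were not well above background on any BAM array at 90 days, and 2 on any at 30 days. The part of these lists in the changes of Slc2a1, Hk2, Pgk1 and Ldha was not tested. Between the grafts at 30 days, where Bnip3 differed, 1.66% of all probes were called. Of the markers, 0 of 12 urothelial, 0 of 9 smooth muscle, 0 of 11 neutrophil and macrophage and 0 of 8 endothelial were called, with medians of 0.83, -0.11, -0.51 and 0.15. The urothelial list mean ran from 2.92 to 3.97 with BAM+ASCs and from 1.69 to 3.01 with BAM, and its part in the Bnip3 difference was not tested.

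Across the 64 arrays, with each array's deviation taken from its group mean, the 10 genes varied together only in part. Of 45 pairs 28 had a correlation above 0, with a median Pearson r of 0.0646. The closest pairs were Slc2a1 with Eno1 (r = 0.677, rho = 0.666), Pgk1 with Ldha (r = 0.647) and Slc2a1 with Hk2 (r = 0.625). Hk2 with Pfkp had the lowest, r = -0.571, and -0.223 without the 2 arrays farthest from the median of Hk2. These are descriptions over arrays that share slides and the scaling of each array, and on saturated arrays the values of Ldha and Pgk1 follow that scaling. No test was made.

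**Figure D5:**
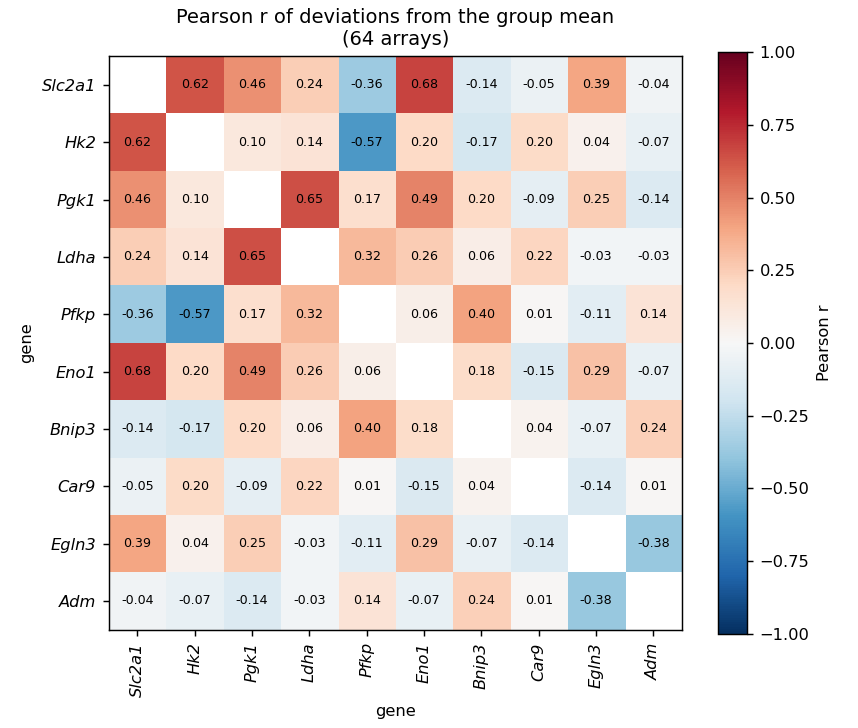
Pearson r between each pair of the 10 genes over 64 arrays, each gene taken as its deviation from the group mean, on a color scale from blue (negative) to red (positive). Slc2a1 with Eno1 (0.677) and Pgk1 with Ldha (0.647) are the strongest, and Hk2 with Pfkp (-0.571) is the lowest.

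By the same measure, over the 5232 named genes well above background on all 64 arrays, the most like genes were named for the 7 members that were so as well. For Pgk1 and Eno1 these were glycolysis enzymes, Tpi1 for Pgk1 (r = 0.776, rho = 0.764) and Aldoa for Eno1 (r = 0.702, rho = 0.685), with the locus Tpi1l1 next for both (r = 0.715 and 0.697). For Ldha they were Pgam1 (r = 0.671, rho = 0.638) and Gapdh (r = 0.662, rho = 0.706). For Slc2a1 they were Clic1 (r = 0.729, rho = 0.682) and Litaf (r = 0.722, rho = 0.791). For Bnip3 they were Coro1c (r = 0.797, rho = 0.779) and Agpat4 (r = 0.78, rho = 0.708), for Pfkp Agtpbp1 (r = 0.867, rho = 0.816) and Niban1 (r = 0.866, rho = 0.824), and for Adm Rprml (r = 0.797, rho = 0.665) and Phf19 (r = 0.664, rho = 0.589). Without the 2 most distant arrays these r values ran from 0.596 to 0.822.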

How the data were processed

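Total RNA (RIN above 7 per the study's methods) of 64 reconstructed bladder walls was labelled in 1 color and hybridized to Agilent rat 8x60K arrays, 1 array per rat. The authors deposited the scanner tables of Agilent Feature Extraction (version 12.0.1.1 per the file headers, protocol GE1_1200_Jun14, design build rn4), which hold background-subtracted spot intensity, median signals and spot flags (a score of 0 or 1 for well above background, saturation and outliers), and a series table of spot intensities on the linear scale. Labels and methods number the groups differently and state different numbers of rats, so arrays were grouped by graft and day from the labels.

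Here, log2 of the deposited processed intensity was taken minus each array's 75th percentile over gene spots, outlier spots were left out, and spots of a probe were averaged. The 62976 spots comprised 58717 gene and 4259 control spots and gave 30367 gene probes, 18758 of them named through RefSeq accessions. limma 3.58.1 (R 4.3.3) estimated the mean of each of 8 groups in 1 model over 64 arrays, and its eBayes moderated test was used. Adjustment was by Benjamini-Hochberg over all probes. The script was tested on simulated data with independent noise and without slide effects or saturation, so that run checks the script only. P-values measure the spread between rats within a group. The number of arrays limits the precision. Each gene is read by its brightest probe, and other pathway genes are named where called, well above background on all arrays of at least 1 group and among the 6 largest changes of a comparison, except 1 gene that is not reported here. The 2 most like genes were named for members well above background on all arrays. The members and gene lists were chosen with earlier results of these data known. Promoters came from the RefSeq table of assembly GRCr8, while no probe or protein sequence was used here.

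Alternatives were normexp background correction (offset 50, on the median signal, since no mean signal was used here), quantile normalization, a percentile over detected probes, the authors' series table (log2 taken here), outlier spots kept, replicate number as a block, the methods' analysis of variance, fits on 2 groups, dim probes left out, a 2-fold threshold, any probe of a gene, and leaving out each array. Each of the 10 genes was measured by 1 probe, so the setting of any probe of a gene could not change a count. Of the columns of the series table, 3 (BAM+ASCs at 7 days, replicates 2 to 4) held the signal error in place of the signal and 1 array lacked 24873 gene spots.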

Additional observations from a re-analysis of the deposited data

Results flagged for a closer look

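Of 80 sets of 8 arrays (10 genes in 8 groups), 8 held an array whose gap to its nearest neighbour exceeded Dixon's 95% critical share of the group's range, where chance gives about 1 in 20 sets, or 4. Hk2 was at -4.81 in replicate 5 of BAM at 90 days, with the next array at -2.62, and at -3.64 in replicate 7 of BAM at 180 days, with the next at -2.96, and it was not well above background on either array. Pfkp was at 1.97 in replicate 3 of BAM+ASCs at 7 days, with the next at 2.33. Eno1 was at 2.88 in replicate 6 of BAM+ASCs at 30 days, with the next at 3.51, and at 3.11 in replicate 6 of BAM at 180 days, with the next at 3.38. Car9 was at -2.22 in replicate 1 of BAM+ASCs at 30 days, with the next at -3.03, and 95.6% of the gene spots of that array were well above background. Adm was at 1.99 in replicate 7 of BAM+ASCs at 7 days, with the next at 0.40, and at 2.24 in replicate 2 of BAM at 7 days, with the next at 0.84.

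In 2 genes the change from 30 to 90 days differed between the grafts by a test of the difference itself, Bnip3 by 0.97 (adjusted p = 0.00552, limma) and Egln3 by 0.83 (adjusted p = 0.000768).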

How the results depend on the processing

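The counts of called genes (0, 1, 1 and 0 between grafts at 7, 30, 90 and 180 days, 1, 5 and 0 over the 3 steps with BAM, 0, 5 and 0 with BAM+ASCs, and 2 for the differences between days) depended on the setting as follows. At 30 days the count was 0 with the 2 groups alone and at a 2-fold threshold, and at 90 days it was 0 with these and with normexp or dim probes left out. With BAM from 7 to 30 days it was 2 after quantile normalization (Bnip3 and Car9), 3 with the 2 groups alone (Pfkp, Bnip3 and Car9), 2 with dim probes left out and 0 at 2-fold. From 30 to 90 days it was 3 at 2-fold with BAM (Slc2a1, Hk2 and Pgk1) and 3 with BAM+ASCs (Slc2a1, Hk2 and Car9), 4 with BAM after quantile normalization (without Ldha), and with BAM+ASCs 4 under normexp (without Car9) and 6 after quantile normalization, where Egln3 was called higher (0.59). With BAM+ASCs from 7 to 30 days it was 1 after quantile normalization (Eno1, -0.60). Of the 2 differences between days 1 was left under normexp (Bnip3). With each array left out the counts were 0 to 0, 1 to 1, 0 to 1 and 0 to 0 between grafts, 1 to 2, 5 to 6 and 0 to 1 with BAM, 0 to 0, 5 to 6 and 0 to 0 with BAM+ASCs, and 1 to 3 for the differences. The higher counts within a graft came without replicate 7 of BAM at 30 days or replicate 8 of BAM at 90 days (Car9), replicate 5 of BAM at 90 days (Hk2), and replicate 3 at 30 days or 6 at 90 days of BAM+ASCs (Egln3). For the differences they came without replicate 2 of BAM at 90 days or replicate 6 of BAM+ASCs at 180 days (Car9, 180 minus 90 days). With the replicate number as a block the counts were the same (0, 1, 1, 0, 1, 5, 0, 0, 5, 0 and 2), same-numbered deviations correlated at -0.312 to 0.617, and at most 3 of 8 arrays correlated best with their own number, so the numbers were not taken to pair the arrays. In the comparisons of grafts and of days, with all arrays kept, signs turned for uncalled values only: at 7 days Pfkp was 0.01 (normexp), 0.12 (quantile), 0.10 (detected probes), 0.00 (series table) and 0.00 (outliers kept), at 30 days Car9 was 0.03 (detected probes), at 90 days Pfkp was -0.00 (normexp) and -0.03 (quantile), at 180 days Pgk1 was -0.02 (quantile), Eno1 0.04 (normexp) and Car9 -0.04 (quantile) and -0.01 (detected probes), Car9 with BAM from 30 to 90 days was 0.02 (normexp), and with BAM+ASCs from 90 to 180 days Pgk1 was -0.04 (quantile), Pfkp -0.07 (quantile) and -0.06 (detected probes) and Eno1 -0.08 and -0.06. Further uncalled values turned with single arrays left out, among them Hk2 between the grafts at 90 days, 0.02 without replicate 8 of BAM. Uncalled differences between days turned as well, among them Pgk1 for 90 minus 7 days, 0.13 as reported and -0.30 after quantile normalization. With each array left out, called changes from 30 to 90 days with BAM were -1.69 to -1.45 (Slc2a1), -1.59 to -1.10 (Hk2), -1.12 to -1.02 (Pgk1), -0.87 to -0.72 (Ldha) and -0.98 to -0.72 (Bnip3), and with BAM+ASCs -1.09 to -0.93, -1.21 to -1.07, -0.94 to -0.88, -0.69 to -0.63 and -1.22 to -1.04 (Car9). Between grafts Bnip3 at 30 days was -1.04 to -0.80 and Car9 at 90 days -0.87 to -0.56. The causes were not tested. Signal over background limits Car9 and late Hk2, and saturation limits Ldha and Pgk1 with BAM.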
